A study of Salvia miltiorrhiza with 5 samples.

Results

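Hairy roots of *Salvia miltiorrhiza* treated with methyl jasmonate (MeJA) for 6 h were compared with roots treated for 1 h, without passing through the control. The comparison used 2 of the 5 libraries of the series, MeJA-1h and MeJA-6h, and the 42193 of 55588 unigenes with 30 or more counts in either of them. A unigene is a transcript sequence assembled from the reads, and several unigenes can belong to one gene. Hairy roots are root cultures that carry genes of a soil bacterium and grow in liquid medium without a shoot, so they stand for root tissue only. The cultures were 40 days old and grown in shake flasks, MeJA was given at 0.1 mM, and each library held mixed RNA of 3 replicate samples. The control library was taken from untreated cultures at 0 h and is given beside the values as background. No culture was sampled at 1 h or 6 h without MeJA, so time in culture and MeJA cannot be told apart. No unigene of these tables is paired with a tissue marker, so the label of the tissue was not checked against markers.

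Jasmonates are plant hormones of wounding and defence. In Arabidopsis they work by removing JAZ repressors, proteins of the Tify family, from transcription factors such as MYC2, and the *JAZ* genes are themselves among the first to be switched on, which damps the response. Tanshinones are diterpenes of the Salvia root, built from the 5-carbon units of the mevalonate (MVA) and methylerythritol phosphate (MEP) pathways. The phenolic acids of the same roots, rosmarinic acid and salvianolic acid B, join a phenylpropanoid branch from phenylalanine with a branch from tyrosine. A comparison of 6 h with 1 h asks which of these genes had passed their peak and which were still climbing.

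The counted reads summed to 16070622 in MeJA-1h, 15789097 in MeJA-6h and 13395770 in the control. With 1 library per time there was no replicate check, and the read test compares these libraries and not the times. The word lower or higher is used below for a unigene whose level in RPKM (reads scaled by unigene length and library size) differed over 2-fold with a false discovery rate (FDR) under 0.01 in the read test. Intervals are 95% intervals of counting error only. Differences are log2 of the RPKM ratio of 6 h to 1 h, so a negative value is a lower level at 6 h.

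Among all unigenes tested, 2273 were lower at 6 h (5.39%) and 1694 were higher (4.01%), which makes 9.4% in either direction. The median difference was 0.03 on the log2 scale. In bulk RNA a lower level can mean fewer cells of a type or less RNA per cell, and these cannot be told apart. Of the 2273 lower unigenes, 1090 had been over 2-fold above the control at 1 h, while 1082 had been within 2-fold of it. At 6 h 953 of them were within 2-fold of the control and 911 were under 0.5 of it, so the lower unigenes include many that had not been raised at 1 h. Of the 1694 higher unigenes, 573 had been under 0.5 of the control at 1 h, and 721 stood over 2-fold above it at 6 h. The lists described next were drawn up by the study on these same libraries, most of them from unigenes raised over the control, and are not independent evidence of a direction. As their background, of 5740 tested unigenes over 2-fold above the control in at least 1 elicited library, 21.9% were lower at 6 h than at 1 h and 13.4% were higher.

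Most unigenes of the tanshinone and phenolic acid pathways differed by less than 2-fold between 1 h and 6 h. Of 103 listed pathway unigenes 97 were tested, 10 were lower (10.3%) and 4 were higher (4.12%). The lower share lies above the 5.39% of all unigenes tested and the higher share is near their 4.01%. Both lie below the shares of the elicited background, a set chosen for its rise over the control, as not every pathway unigene was. When the reads of all unigenes with one gene name were summed, 3 of 43 genes were lower and 3 were higher. The lower genes were *GPPS2*, *CPS4* and *4CL4*, and the higher genes were *DXS3*, *RAS2* and *RAS5*. With an assumed coefficient of variation of 0.2 between libraries, the main unigenes of *4CL4*, *RAS2* and *RAS5* still passed. Those of *GPPS2*, *CPS4* and *DXS3* did not. At 6 h 5 of the 97 unigenes lay under the control, against 16 at 1 h. Of all 42193 unigenes tested, 27799 lay under it at 6 h and 29844 at 1 h. The count was thus smaller at 6 h over all unigenes too.

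**Figure D1:**
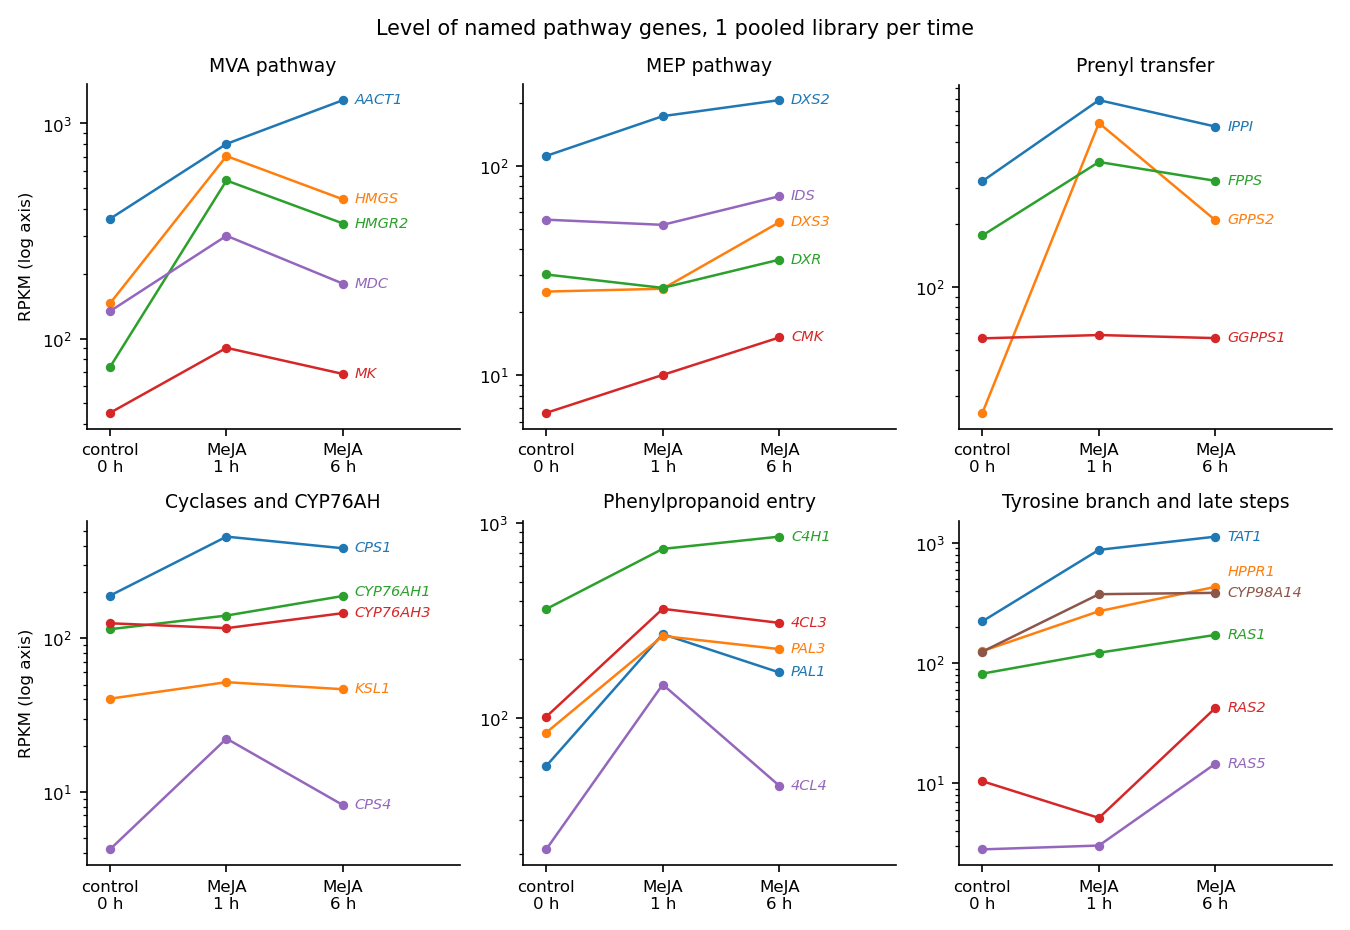
RPKM values on a log axis at the control, MeJA-1h and MeJA-6h for the most abundant unigene of named pathway genes, with 1 pooled library per point and no error bars. *GPPS2*, *4CL4* and *CPS4* peak at 1 h, *DXS3*, *DXR* and *IDS* turn upwards only after 1 h, and *RAS2* goes from 5.15 to 42.5 RPKM.

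In the MVA pathway, which makes 5-carbon units in the cytosol, 10 of 16 tested unigenes were below their 1 h level at 6 h, and 1 of them met both thresholds. *HMGS*, which makes HMG-CoA, had 146 RPKM in the control, 705 at 1 h and 444 at 6 h. *HMGR2*, the rate-limiting reductase of the pathway, had 73.6, 543 and 343 RPKM. The differences of both, -0.67 (-0.70 to -0.64) and -0.66 (-0.69 to -0.64), were beyond counting error but short of 2-fold. *MDC*, the last step to isopentenyl diphosphate, had 134, 301 and 180 RPKM in its main unigene, and a minor *MDC* unigene (SmiContig6174) was the lower one, with 96 reads at 1 h and 22 at 6 h. *AACT1*, the thiolase that opens the pathway, went the other way with 360, 804 and 1284 RPKM, a difference of 0.68 (0.65 to 0.70). The opening step of the MVA pathway thus stood at 1.60 times its 1 h level while *HMGS* and *HMGR2* stood at 0.629 and 0.631 times theirs. *MK* and *PMK*, the kinases ahead of *MDC*, differed by -0.40 and 0.05.

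The MEP pathway, which makes the same units in plastids, moved in the opposite sense in most unigenes. Of its 18 unigenes 15 were above their 1 h level, with a median difference of 0.45 against -0.26 in the MVA pathway. Under the control lay 9 of the 18 at 1 h and 1 at 6 h. Of all 42193 unigenes tested, 29844 lay under it at 1 h and 27799 at 6 h. *DXS3*, a synthase of the first step, was the higher one. Its RPKM values were 25.1 in the control, 25.9 at 1 h and 53.8 at 6 h, a difference of 1.06 (0.95 to 1.16). *DXR*, the second step, had 30.3, 26.1 and 35.7 RPKM, and *IDS*, the last, had 55.4, 52.3 and 71.7. *DXS2*, the more abundant synthase, had 112, 173 and 206 RPKM. *CMK* and *MCS*, in the middle of the pathway, differed by 0.59 and 0.46, both over counting error and under 2-fold. *HDS1* was the exception with all 3 of its unigenes below their 1 h level, and its main unigene had 101 RPKM at 1 h and 96.7 at 6 h.

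All 5 unigenes of the prenyl steps, which join the 5-carbon units into longer chains, were below their 1 h level. *GPPS2*, for geranyl diphosphate synthase, held the lower unigenes of this step, 2 of 2. Its main unigene had 24.8 RPKM in the control, 614 at 1 h and 209 at 6 h, and its second unigene had 10.5, 299 and 105. Their differences were -1.55 and -1.52, and at 6 h the gene was still well over the control. *GGPPS1*, which makes the 20-carbon precursor of the tanshinones, was level at 56.6, 58.8 and 56.8 RPKM. *IPPI*, the isomerase, and *FPPS*, which serves sesquiterpenes and sterols, differed by -0.42 and -0.30.

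The steps that commit the chain to tanshinones changed little. *CPS1*, the copalyl diphosphate synthase of tanshinone biosynthesis, had 190 RPKM in the control, 461 at 1 h and 387 at 6 h in its main unigene. Its other unigene differed by -0.50 and lay under the control at 6 h. With the reads of both summed, the difference was -0.32. *KSL1*, which closes the next ring to miltiradiene, had 40.4, 51.8 and 46.6 RPKM. *CYP76AH1* and *CYP76AH3*, the P450 enzymes that oxidise miltiradiene and its product, were above their 1 h level in all 6 unigenes, by 0.30 to 0.43, and none reached 2-fold. *CYP76AH3* had 125, 117 and 146 RPKM in its main unigene. Unigenes of one gene can share reads, so they are not separate measurements. Of the other cyclases, *CPS4* was lower with 4.20, 22.2 and 8.17 RPKM (-1.44), and *CPS2* was lower in 2 of 4 unigenes. The main *CPS2* unigene lay just past the threshold (-1.01).

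In the phenylpropanoid entry, which turns phenylalanine into coumaroyl-CoA, 14 of 19 unigenes were below their 1 h level and 3 were lower. *4CL4*, a coumarate-CoA ligase, was lower in both of its unigenes. The main one had 21.2 RPKM in the control, 149 at 1 h and 45.0 at 6 h, a difference of -1.72 (-1.81 to -1.64). *4CL3*, the most abundant ligase, had 102, 364 and 308 RPKM and was not among the lower ones. *PAL1*, a lyase that opens the pathway, had 56.8, 270 and 172 RPKM, and all 6 of its unigenes were below their 1 h level, 1 of them lower (SmiContig11573, -1.19). *PAL2* differed by -0.60 and the main *PAL3* unigene by -0.22. Of the 3 *PAL3* unigenes 2 were above their 1 h level, and with their reads summed *PAL3* was level (0.02). *C4H1*, the hydroxylase between lyase and ligase, had 362, 738 and 853 RPKM in its main unigene, so the levels did not part at one point of the branch.

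In the tyrosine branch the main genes were above their 1 h level. *TAT1*, the tyrosine aminotransferase that opens the branch, had 223 RPKM in the control, 877 at 1 h and 1130 at 6 h (0.36, 0.34 to 0.39). *HPPR1*, the reductase that follows, had 126, 271 and 432 RPKM, a difference of 0.68 (0.63 to 0.72). *TAT2* parted among its unigenes: the most abundant (SmiContig12929) had 8.23, 16.6 and 26.7 RPKM, while SmiContig8005 was lower with 0.21, 8.42 and 1.02 RPKM. The latter had 193 reads at 1 h and 23 at 6 h, a difference of -3.04 (-3.74 to -2.42).

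The late steps of rosmarinic acid held the largest differences of the pathway upwards. *RAS* genes encode rosmarinic acid synthases and their relatives, which join both branches. *RAS2* had 10.4 RPKM in the control, 5.15 at 1 h and 42.5 at 6 h, so it was the lowest of the 3 libraries at 1 h and the highest at 6 h, with a ratio of 8.24 (log2 3.04, 2.78 to 3.33). *RAS5* had 2.82, 3.04 and 14.6 RPKM in its main unigene (2.26, 1.74 to 2.81), and a second unigene went from 1 read to 67. *RAS1*, the synthase with the highest level, had 81.8, 122 and 172 RPKM. Its 4 unigenes differed by 0.42 to 0.49, below 2-fold. *RAS4* ran against the others with 8.76 RPKM at 1 h and 4.77 at 6 h in its main unigene. *CYP98A14*, the P450 that hydroxylates the ester, was level at 375 and 385 RPKM.

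The study also listed candidate enzymes for the last steps. Of the 6 reductases and 7 dehydrogenases put forward for tanshinones, 7 were lower, 1 was higher and 12 of 13 were below their 1 h level. The lower share was 50% of the reductases and 57.1% of the dehydrogenases. It was 5.39% of all unigenes tested and 34.3% of those over 2-fold above the control at MeJA-1h. The study gave these candidates as raised by an elicitor. Counting the laccases below, all 8 lower candidates had been over 2-fold above the control at 1 h. The reductase SmiContig32802 had 47.8 RPKM in the control, 233 at 1 h and 45.0 at 6 h, so it was back under the control (-2.37, -2.48 to -2.27). The reductase SmiContig6622 had 59.1, 411 and 123 RPKM. Among the dehydrogenases, SmiContig29584 went from 11.3 to 1.89 RPKM (-2.58), and SmiContig20215 was the one that was higher, from 8.04 to 16.6 RPKM (1.05). For the coupling of rosmarinic acid to salvianolic acid B the study listed laccases, copper enzymes that oxidise phenols. All 4 unigenes of the laccase 1 A group were above their 1 h level, by 0.81 to 1.30. The most abundant, c22112_Smj-6h_g1_i1, was higher with 55.0, 333 and 816 RPKM. In the laccase 2 group SmiContig8962 was lower with 9.25, 19.5 and 1.19 RPKM (-4.03, -4.56 to -3.58), or 640 reads against 38, while the other members differed by 0.00 and 0.37.

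Cytochrome P450 enzymes insert oxygen into small molecules and shape most plant terpenoids and phenolics. The study listed 71 of them for their likeness in expression to *KSL1*, *CPS1* and *CYP76AH1* or to *TAT1*, *HPPR1* and *RAS1*, over libraries that include both of these. The order of 6 h and 1 h was therefore part of how they were chosen, and their counts are a description. Of 67 tested, 2 were lower (2.99%) and 8 were higher (11.9%). These shares were 5.39% and 4.01% over all unigenes tested, and 21.9% and 13.4% in the elicited background. The higher share is thus near that of raised unigenes. The 41 tested P450s of the tanshinone list had a median difference of -0.42, with 2 lower and 2 higher. The 26 of the phenolic acid list had a median of 0.30, with none lower and 6 higher. The names given to these P450s are those of their closest Arabidopsis class.

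In the tanshinone list the CYP72 members tended to lower levels, with 7 of 8 below their 1 h level and a median of -0.70. Both lower unigenes belonged to this family and were named CYP72A7. SmiContig30843 had 24.2 RPKM in the control, 93.9 at 1 h and 37.4 at 6 h (-1.33, -1.44 to -1.22). The 23 CYP71 unigenes, the largest family, spread from -0.92 to 0.78 with none called. All 4 CYP76 members were above their 1 h level. The main *CYP76AH1* and *CYP76AH3* unigenes are among them under the Arabidopsis name CYP76C2, and another CYP76C2 unigene was higher, from 8.77 to 19.2 RPKM (1.13). CYP706A6 (SmiContig30809) was higher from a low level, with 26 reads at 1 h and 92 at 6 h (1.83, 1.21 to 2.54). It had 2.35 RPKM in the control, 0.97 at 1 h and 3.46 at 6 h.

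In the phenolic acid list all 4 CYP81 unigenes were higher. The abundant ones were both named CYP81D1. SmiContig7745 had 20.9 RPKM in the control, 53.0 at 1 h and 146 at 6 h (1.46, 1.38 to 1.55), and c18925_Smj-6h_g1_i2 had 20.7, 54.3 and 143. Unigenes so close in level and name may share reads, and their agreement is not separate support. CYP81F3 (SmiContig30417) had 5.19, 16.2 and 37.3 RPKM. CYP79B3, named after an Arabidopsis enzyme that acts on tryptophan, had the largest difference of the list with 1.11, 7.97 and 29.0 RPKM (1.86). The CYP72 members of this list were level, with 4 of 5 between -0.18 and -0.12. All 5 CYP83 unigenes were above their 1 h level without reaching 2-fold.

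**Figure D2:**
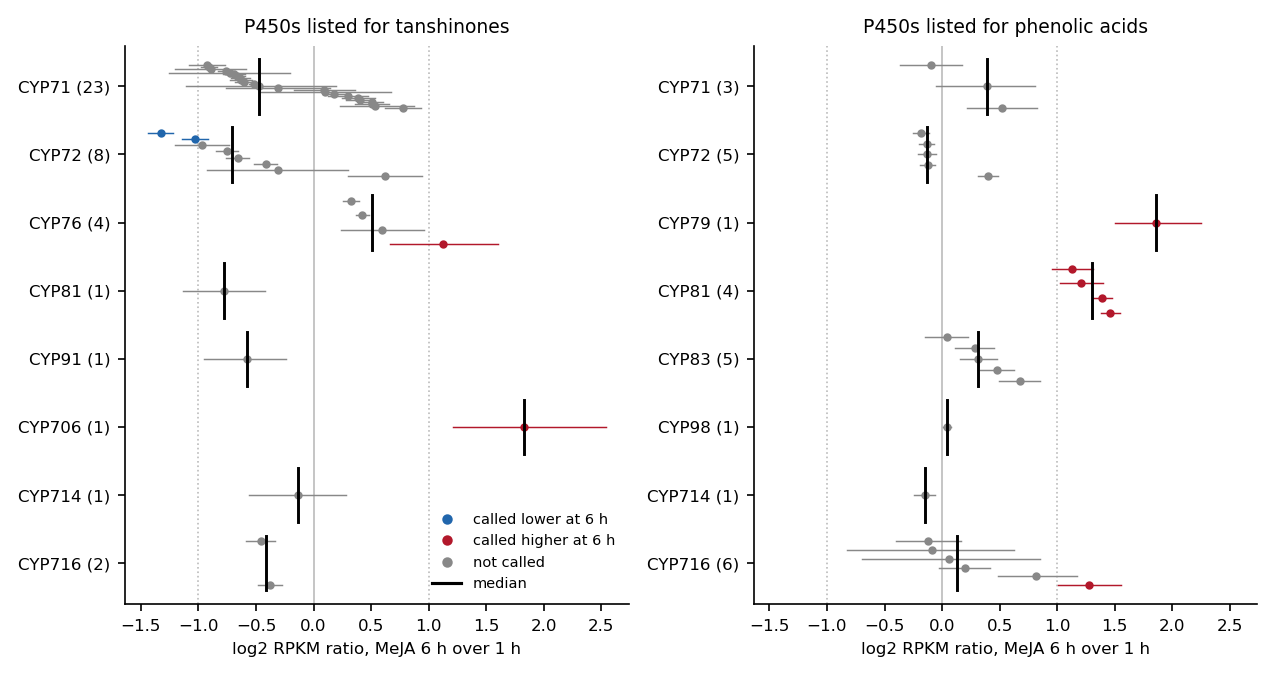
Difference between MeJA-6h and MeJA-1h (log2 of the RPKM ratio) of the listed P450 unigenes by family, with 95% intervals of counting error, black bars for medians and dotted lines at 2-fold. In the left panel both lower unigenes are CYP72, and in the right panel the 4 CYP81 unigenes and the CYP79 unigene are higher.

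Transcription factors (TFs) bind DNA and switch genes on or off. The study listed TFs raised by MeJA or by yeast extract, the other elicitor of the series, and some were raised by yeast extract only. Of 375 listed TF unigenes 325 were tested, 79 were lower (24.3%) and 34 were higher (10.5%), and the median difference was -0.40. These shares are near the 21.9% and 13.4% of all unigenes raised over the control in an elicited library. Of all 3175 tested unigenes over 2-fold above the control at MeJA-1h, 34.3% were lower at 6 h and 6.55% were higher. Of the 2890 over 2-fold above it at MeJA-6h, 13.8% were lower and 24.9% were higher. The family shares below stand beside these, and a share near them is not particular to a family. The highest of the control, 1 h and 6 h was 1 h in 198, 6 h in 105 and the control in 22. Over all unigenes tested it was 1 h in 8226, 6 h in 9945 and the control in 24022. The TFs were listed for a rise over the control, so few peaks in the control follow from that choice. Of the 79 lower TFs, 40 were still over 2-fold above the control at 6 h and 35 were within 2-fold of it. Of the 34 higher TFs, 21 had been within 2-fold of the control at 1 h and 30 stood over 2-fold above it at 6 h.

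**Figure D3:**
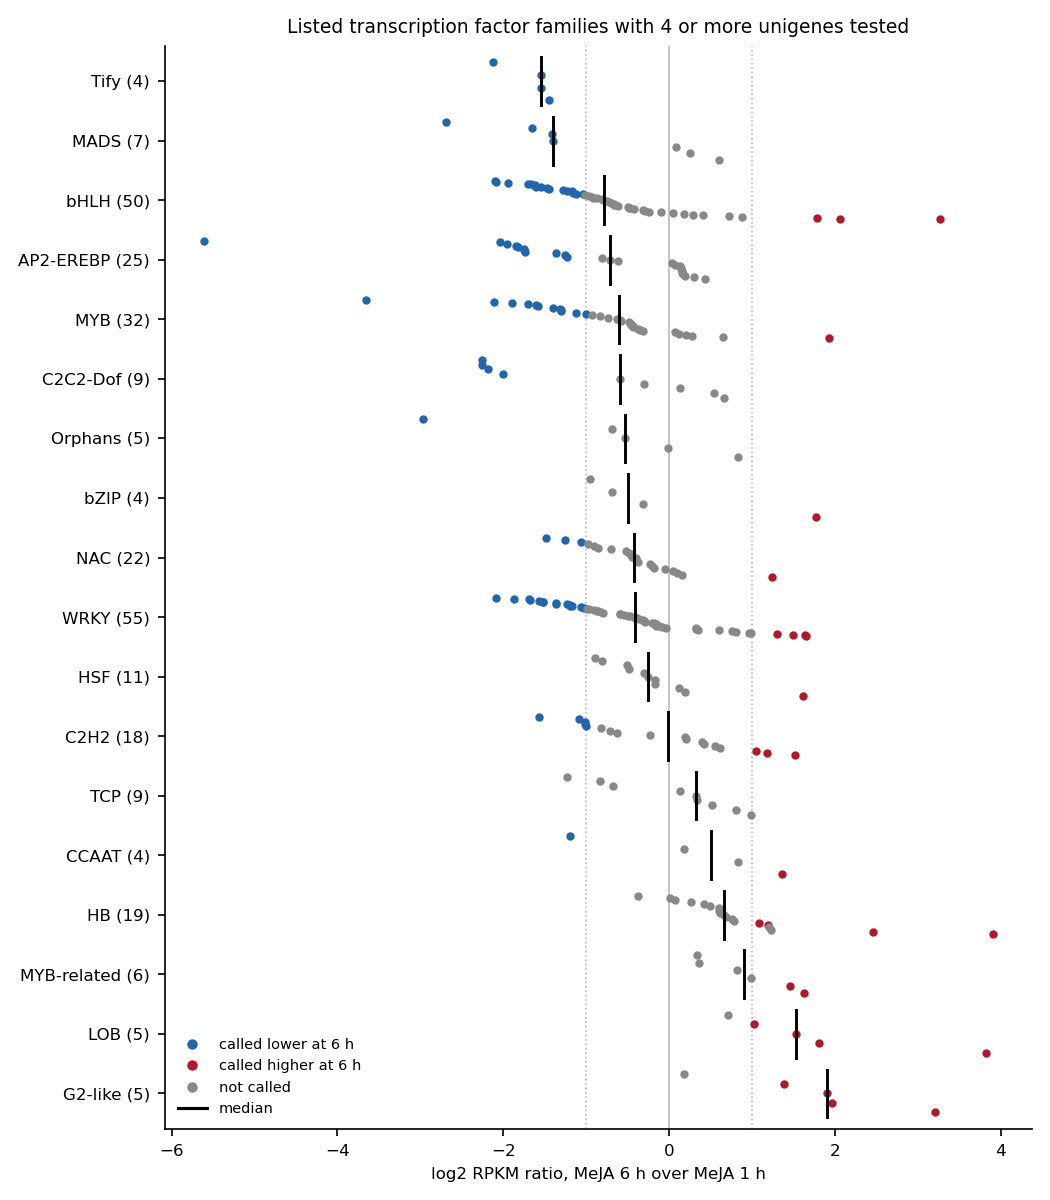
Difference between MeJA-6h and MeJA-1h (log2 of the RPKM ratio) of listed TF unigenes in families with 4 or more tested, ordered by their median (black bars), with dotted lines at 2-fold. Tify and MADS have the lowest medians (that of MADS went from -1.40 to -0.66 without the unigenes named for the MeJA assemblies), and MYB-related, LOB and G2-like have no unigene below 0.

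Tify unigenes, the family of the JAZ repressors, were lower in 4 of 4. With an assumed coefficient of variation of 0.2 between libraries 1 of the 4 still passed, SmiContig11926. The most abundant, c14867_Smj-0h_g1_i1, had 39.3 RPKM in the control, 1475 at 1 h and 504 at 6 h (-1.55, -1.59 to -1.51). SmiContig11926 had 2.23, 264 and 60.3 RPKM (-2.13). SmiContig12974 and SmiContig7563 had 151 and 143 RPKM at 1 h and 51.6 and 52.3 at 6 h. All remained far above their control levels, the highest of which was 39.3 RPKM.

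The bHLH family, which holds MYC-type factors, had 18 lower (36%) and 3 higher of 50 tested, with a median of -0.79. All tested unigenes over 2-fold above the control at MeJA-1h had 34.3% lower and a median of -0.70, so the family was near that background. Without the unigenes named for the MeJA assemblies, 9 of 35 bHLH unigenes were lower. The 3 most strongly lower with 100 or more counts included c21928_Smj-1h_g1_i2, listed at 0 in the control, with 35.8 RPKM at 1 h and 8.39 at 6 h (-2.09). Another was SmiContig15118 with 10.7, 59.9 and 18.3 RPKM. In contrast SmiContig10532 kept rising, with 0.41 RPKM in the control, 3.60 at 1 h and 34.7 at 6 h, a ratio of 9.63 (log2 3.27, 2.76 to 3.88). A second riser, c14358_Smj-6h_g1_i1, had 1.02, 2.55 and 10.6 RPKM. By sequence match in the study's table of raised genes, 2 unigenes were matched to Arabidopsis MYC2, a central activator of jasmonate responses, and both were lower. They had 69.0 and 53.7 RPKM at 1 h and 21.8 and 17.5 at 6 h, and 9.45 and 5.96 in the control.

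AP2-EREBP factors, the family of the ethylene response factors, held the largest difference among all listed unigenes. c18443_Smj-1h_g1_i1 had 0.08 RPKM in the control, 118 at 1 h and 2.43 at 6 h, or 1736 reads at 1 h and 35 at 6 h, a fall of 48.8-fold (-5.61, -6.13 to -5.13). In all 11 of 25 were lower (44%) and none was higher. The 11 unigenes came from 6 assembly components, so they are fewer genes than unigenes. Without the unigenes named for the MeJA assemblies, 2 of 7 were lower. The other 14 lay between -0.81 and 0.43, among them a group at about 13 to 17 RPKM at 1 h that was level at 6 h, such as c21378_Smj-6h_g3_i4 with 16.9 and 18.4 RPKM.

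MYB factors, many of which steer phenylpropanoid genes, had 12 lower (37.5%) and 1 higher of 32. SmiContig28968, the most abundant of those lowest, had 63.7 RPKM in the control, 239 at 1 h and 78.7 at 6 h (-1.61). SmiContig20836 had 6.97, 56.1 and 15.1 RPKM. WRKY factors, known from responses to wounding and microbes, had 15 lower (27.3%) and 4 higher (7.27%) of 55. SmiContig12234 had 40.4, 315 and 73.9 RPKM (-2.09, -2.17 to -2.02). Among the WRKY unigenes that were higher, SmiContig29565 had dipped from 7.15 RPKM in the control to 4.14 at 1 h before reaching 10.2 at 6 h, and SmiContig12821 had 2.23, 3.75 and 10.5. NAC factors had 3 lower (13.6%) and 1 higher of 22. C2H2 zinc finger factors were divided with 5 lower (27.8%) and 3 higher (16.7%) of 18.

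Other families stood on the side of higher levels at 6 h, nearly all from low counts. Homeobox (HB) factors, with roles in development and meristems, had 4 higher (21.1%) and none lower of 19, and 18 were above their 1 h level. Of all tested unigenes over 2-fold above the control at MeJA-6h, 24.9% were higher. The highest HB levels among these were 9.96 RPKM at 6 h for c21090_Smj-6h_g1_i2 and 8.04 for SmiContig11131. LOB factors, which mark organ boundaries and lateral roots, had 4 higher of 5, and SmiContig7021 had 36.4 RPKM in the control, 25.1 at 1 h and 72.4 at 6 h (1.53). G2-like factors had 4 higher of 5, the most deeply read being SmiContig11890 with 42 reads at 1 h and 156 at 6 h. Both SRS unigenes were higher, with 10 and 3 reads at 1 h against 38 and 54. In these families 2 of 5 LOB, 2 of 5 G2-like and 2 of 2 SRS unigenes had been under the control at 1 h and 0 were under it at 6 h. Of all 42193 unigenes tested, 29844 were under it at 1 h and 27799 at 6 h. The study listed these TFs for a rise over the control, so these counts are a description.

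Among unigenes outside these lists, those matched to one Arabidopsis gene in the study's table of raised genes gave the functions below, and that table was at hand only in part. Lipoxygenases add oxygen to unsaturated fatty acids. Of 5 unigenes matched to LOX5, 4 were lower and the fifth missed by a little. The most abundant, SmiContig9212, had 76.9 RPKM in the control, 341 at 1 h and 162 at 6 h (-1.07), and SmiContig23777 had 35.7, 134 and 67.7 (-0.99). SmiContig10151 went from 5.55 in the control to 25.7 and then to 3.78 RPKM, below where it began (-2.76).

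**Figure D4:**
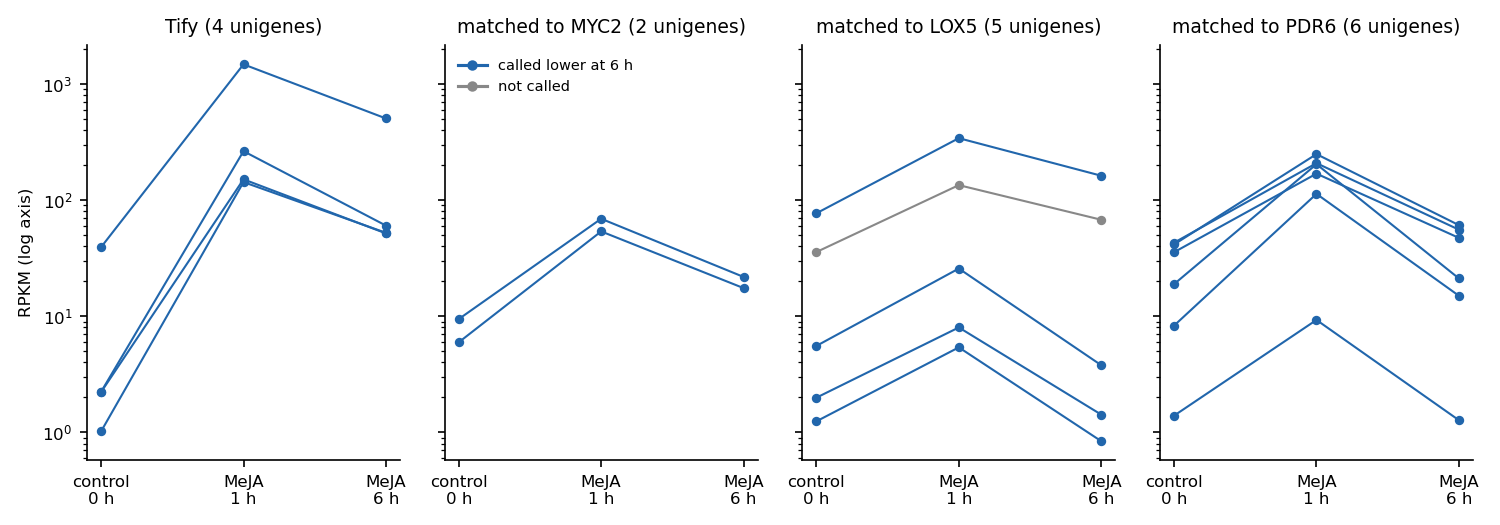
RPKM values on a log axis at the control, MeJA-1h and MeJA-6h for the 4 Tify unigenes and for unigenes matched to MYC2, LOX5 and PDR6, with 1 line per unigene and 1 pooled library per point. Every line peaks at 1 h, and all but one LOX5 unigene were lower at 6 h.

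The largest fall among the matched genes was in a transporter. Pleiotropic drug resistance proteins are ABC transporters that carry terpenoids and other compounds out of plant cells. All 6 unigenes matched to PDR6 were lower, with a median of -2.45. SmiContig18873 had 18.9, 204 and 21.1 RPKM (-3.27), and SmiContig8653, with 23238 reads at 1 h, had 41.5, 249 and 60.8 (-2.03). A unigene matched to PDR11 (SmiContig6506) had 9.54, 141 and 17.2 RPKM. SmiContig6631, matched to a protein of the RimM family that helps mature ribosomes in bacteria, had 6.95, 49.6 and 5.93 RPKM, so it ended under the control. A hydrolase of the haloacid dehalogenase type (SmiContig6380) had 10.7, 437 and 60.1 RPKM (-2.86), and SmiContig6795, matched to a thaumatin-like pathogenesis protein, had 22.9, 114 and 28.0.

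Of the 449 tested unigenes with a match, 98 were lower at 6 h (21.83%) and 72 were higher (16.04%). In the elicited background the shares were 21.9% and 13.4%. The lower share is thus near that of raised unigenes, and the higher share lies a little above it. The sets are unlike: of the 449, 259 were highest at 1 h and 190 at 6 h. The background also takes in unigenes raised by yeast extract only. Over 2-fold above the control at MeJA-1h, 34.3% of unigenes were lower and 6.55% higher. For MeJA-6h these were 13.8% and 24.9%. The matches come from the study's table of raised genes, so these counts are a description. An O-methyltransferase (SmiContig9009) had 49.4 RPKM in the control, 48.5 at 1 h and 257 at 6 h, a ratio of 5.29 (2.40, 2.31 to 2.50). Alpha-galactosidases release galactose from sugars and cell wall polymers, and all 3 unigenes matched to AGAL1 were higher. One of them (c15555_Sye-1h_g1_i1) had 12.8, 12.7 and 56.3 RPKM (2.15). All 4 unigenes matched to AT5G45280, an esterase that takes acetyl groups off the pectin of cell walls, were higher by 1.67 to 1.92. Of the 4 unigenes matched to SIP2, a galactosidase of raffinose in Arabidopsis, 3 were higher and 1 was lower. SmiContig2070 of this group had 5.55 RPKM in the control and 12.8 at 6 h, with 60 reads at 1 h and 254 at 6 h (2.09). SmiContig14218, matched to a prolyl 4-hydroxylase, had 1.90, 4.77 and 19.7 RPKM, and c22519_Smj-6h_g1_i2, matched to an amine oxidase (AO1), had 2.78, 4.68 and 20.0. The AGAL1, AT5G45280, SIP2 and PDR6 unigenes were picked for mention in groups after their values were seen.

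Unigenes without a match in the part at hand held the largest difference in each direction among those called. SmiContig12788 had 0.94 RPKM in the control, 1.85 at 1 h and 147 at 6 h, from 29 to 2296 reads, a ratio of 79.2 (6.31, 5.81 to 6.91). SmiContig18277 had 33.1 RPKM in the control, no read at 1 h and 166 reads at 6 h, which is at least 56.2-fold higher with the floor of 3 reads in MeJA-1h. In the other direction c18727_Smj-1h_g1_i1 went from 323 reads to 3 (-6.73, -9.01 to -5.16) and SmiContig16310 from 229 to 5 (-5.40, -7.13 to -4.25). SmiContig16310 had 14.5 RPKM in the control, so at 6 h it stood far under its starting level, unlike c18727_Smj-1h_g1_i1 with 0.66.

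How a unigene was assembled went with its direction. Of 3867 tested unigenes named for the MeJA-1h assembly 11.02% were lower and 1.66% higher, and of 3112 named for MeJA-6h 2.63% were lower and 8.74% higher. The 27150 merged contigs had 5.35% lower and 4.03% higher. Without the unigenes of both MeJA assemblies 52 of 249 TFs were lower and 25 higher, and the part of the assembly in single results was not tested. Of 2337 components with several isoforms tested, 319 had a called isoform. Of these 171 held lower ones, 148 held higher ones and 0 held both. Isoforms of one component share sequence and can share reads, so their like direction is not separate support. The 11 unigenes matched to ribosomal RNA of organelles had a median difference of 0.65, with 1 lower and 2 higher. They come from the study's table of raised genes, so they cannot serve as a measure of RNA composition. The part of RNA composition in the results was not tested. No spread between cultures is known. With an assumed coefficient of variation of 0.2 between libraries, 47 of the 80 named unigenes that were lower or higher still passed, and with 0.4 it was 5, namely c18443_Smj-1h_g1_i1 and the 4 unmatched unigenes above.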

How the data were processed

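RNA was sequenced from pooled hairy root cultures, with 1 library per condition. The labels' extraction text names another tissue and was not used. The authors filtered the reads (NGS QC Toolkit 2.3), assembled unigenes without a genome (Trinity, K-mer 25) and deposited whole-number counts per unigene, not normalized, and RPKM values. In 179 cases a count of 0 stood beside an RPKM above 0, so counts may be estimates cut to whole numbers. Close paralogs and isoforms can share reads, and their values are uncertain. The counting program is not given in the sources used here. A table of 42046 RefSeq genes matched 0 unigene names, so gene names are those of the study's tables and no sequence is shown.

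Ratios are of deposited RPKM values. Where a library had at most 3 reads, 3 were assumed. Counts of MeJA-1h and MeJA-6h were compared by the binomial test (binomTest) of edgeR (4.0.16, under R 4.3.3), and p-values were adjusted after Benjamini and Hochberg over the unigenes with 30 or more counts in either library. Exact conditional (Clopper-Pearson) intervals of 95% cover counting error only. The floor of 3 reads is 0.187 RPKM at 1 h and 0.190 at 6 h for 1 kb. The test was checked on simulated data. Python 3.11.15, pandas 2.3.3, scipy 1.17.1 and matplotlib 3.10.9 were used.

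Members and lists were chosen with earlier results of these data known. Named unigenes follow a rule: in the pathway list the most abundant of each gene name and any other with a different call, in each candidate class the lowest and highest, in each P450 list the 5 lowest and 5 highest called. In TF families with 20 or more listed these are the 3 lowest and 3 highest called with 100 or more counts, and every Tify unigene. All unigenes matched to LOX5 or MYC2 are included, and among the others the 8 lowest and 8 highest with 1 match and the 2 lowest and 2 highest without. Not all of these are printed, and further unigenes printed beside them, LOB, G2-like and SRS included, were chosen after their values were seen. Alternatives were other thresholds, filters and scalings (TMM, DESeq2 1.42.0), a pseudocount and an assumed variation between libraries. The yeast extract libraries enter the elicited background and the unigene lengths behind the floor of 3 reads. They also entered the study's own choice of its lists, such as the TFs and P450s.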

Additional observations from a re-analysis of the deposited data

How the results depend on the processing

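No paired analysis was possible because each time has 1 library, and no replicate could be left out. Of 120 named unigenes, 119 kept direction and call with TMM and with DESeq2 scaling, which move all differences by -0.03. SmiContig23777 became lower under both (-1.02). With a pseudocount of 1 RPKM 116 kept them, and 4 were no longer past 2-fold. The counts of 2273 lower and 1694 higher unigenes became 3969 and 3700 at a fold of 1.5, 830 and 586 at a fold of 3, 1486 and 1064 with 30 or more counts in both libraries, and 1382 and 947 with 100 or more in either. A pseudocount of 1 RPKM gave 1124 higher. An assumed coefficient of variation of 0.2 gave 500 and 347, and 0.4 gave 3 and 5. At a fold of 1.5 the pathway list had 20 lower and 11 higher, the P450 lists 15 and 13, and the TF list 124 and 54. With the assumed variation of 0.2 the pathway list had 4 lower, the P450 lists 0 lower and 1 higher, and the TF list 25 lower and 9 higher. Summing reads per gene name left 3 lower pathway genes. Without the unigenes named for the MeJA assemblies, an alternative chosen after seeing the data, there were 2 higher pathway unigenes, 5 higher P450s and 52 lower TFs. AP2-EREBP then had 2 lower of 7 and bHLH 9 of 35, and the medians of C2C2-Dof and MADS went from -0.60 to 0.12 and from -1.40 to -0.66. A scaling or filter changes how many unigenes are tested or pass, and other causes were not tested.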
